A study of Mus musculus with 4 samples.

Results

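Genes of the unfolded protein response and targets of the transcription factor ATF4 were followed in HT22 cells, an immortalised line derived from mouse hippocampal neurons, after the long noncoding RNA Ntoco was lowered or raised. The genes were 40 named members of these pathways, split into 20 ATF4 targets of the amino acid and stress response, 11 chaperones of the endoplasmic reticulum (ER), and 9 stress sensors, with their effector XBP1, and genes of ER-associated degradation (ERAD). They were found by name among 16846 genes of the count table. There 38 of the 40 were listed. The secreted glycoprotein gene Stc2 and the ERAD gene Derl3 were not, so only their promoters were examined. A filter on low counts passed 37 of the 38, beside 12115 genes in all. The gene that did not pass was the stress-induced transcription factor Atf3, with 6 and 18 reads in the Ntoco shRNA libraries, 0 and 8 in the control shRNA libraries, 5 and 3 in the overexpression libraries and 3 and 10 in the vector libraries.

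The knockdown comparison set cells carrying a short hairpin RNA (shRNA) against Ntoco beside cells with a control shRNA. The overexpression comparison set cells overexpressing Ntoco beside cells with an empty vector. The labels list 1 sample for each of these 4 groups, while the tables held 2 columns for each, used here as 2 libraries per group. Whether the 2 libraries of a group came from separate cultures is not stated, so every p-value measures only the spread between these libraries, which may be technical. The label of the overexpressing cells carries the prefix Lv and the vector columns are named for the plasmid pcDNA, so the way Ntoco was delivered is uncertain. The titles number the cells HT22 to HT25, whereas the cell line label gives HT22 for all. No gene named Ntoco was listed, so neither the knockdown nor the overexpression of the target itself could be checked.

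When misfolded proteins build up in the ER, sensors in its membrane start the unfolded protein response. PERK (Eif2ak3) phosphorylates the translation factor eIF2, which slows translation in general but lets Atf4 mRNA be translated. Other eIF2 kinases, such as the amino acid sensor GCN2, feed into the same step, so ATF4 targets can respond without ER stress. IRE1 (Ern1) splices the mRNA of Xbp1, and ATF6 is cut in the Golgi to release a transcription factor. XBP1 and ATF6 drive genes for ER chaperones and for ERAD, which returns misfolded proteins to the cytosol for breakdown. Counts per gene hold neither the splicing of Xbp1, the cleavage of ATF6 nor the translation of Atf4.

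The promoters of the ATF4 targets and of the chaperones held different short motifs. RefSeq promoters (build GRCm38.p6, 250 bases before to 50 after each transcript start) were found by symbol for 37 of the 40 genes. Hyou1, Manf and Atf6 had no match by symbol. The C/EBP-ATF element, searched as TGATGNAA on both strands, was present at 8 of the 20 ATF4 targets (Asns, Atf3, Chac1, Fgf21, Nupr1, Pycr1, Trib3 and Vldlr), at 0 of 9 chaperones and at 1 of 8 sensor and ERAD genes, Herpud1. It was present in 3.97% of all 32851 promoters. The ER stress element, CCAAT followed after 9 bases by CCACG, was present at 6 of 9 chaperones (Calr, Canx, Creld2, Dnajc3, Hsp90b1 and Hspa5), at 0 of 20 ATF4 targets, and at Derl3 and Syvn1. It was present in 0.119% of all promoters. ER stress element II, ATTGG followed after 1 base by CCACG, was present at Dnajb11 and Herpud1 and in 0.0365% of all promoters. The unfolded protein response element TGACGTGG was present at 0 of the 37 genes and in 0.676% of all promoters. A gene was counted once when any of its listed promoters held the motif, while the share of all promoters counts each promoter. The searched motifs did not overlap each other at these genes. A match describes the sequence and is not evidence of binding, and many of these genes entered such lists through work on these very elements.

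The following stretches lie upstream of the annotated transcript starts and show the element in capitals, with the opposite strand's match reading as its reverse complement. For the ATF4 targets Asns, Chac1, Pycr1, Fgf21 and Nupr1, whose values in every library are given below, the capitals mark the C/EBP-ATF element.
Asns, chr6:7693210-7693257, minus strand: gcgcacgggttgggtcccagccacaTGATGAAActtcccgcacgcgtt
Chac1, chr2:119351024-119351081, plus strand: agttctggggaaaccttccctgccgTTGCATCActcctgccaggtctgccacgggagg
Pycr1, chr11:120643819-120643876, minus strand: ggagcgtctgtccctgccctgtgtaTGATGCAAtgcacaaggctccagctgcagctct
Fgf21, chr7:45615597-45615654, minus strand: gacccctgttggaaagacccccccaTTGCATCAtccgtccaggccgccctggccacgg
Nupr1, chr7:126625548-126625605, minus strand: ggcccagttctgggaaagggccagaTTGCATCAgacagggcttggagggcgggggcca

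For the chaperones Hspa5, Dnajc3, Creld2 and Canx the capitals mark the ER stress element, its 9 spacer bases included. Herpud1 is shown last because it was the only gene here with motifs of both kinds, the C/EBP-ATF element first and ER stress element II after it.
Hspa5, chr2:34772000-34772068, plus strand: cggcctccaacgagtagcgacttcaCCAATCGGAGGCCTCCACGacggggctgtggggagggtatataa
Dnajc3, chr14:118937802-118937870, plus strand: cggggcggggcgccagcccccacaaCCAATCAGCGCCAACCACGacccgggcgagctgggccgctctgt
Creld2, chr15:88819495-88819563, plus strand: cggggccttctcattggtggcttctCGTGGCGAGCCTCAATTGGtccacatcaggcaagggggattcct
Canx, chr11:50325775-50325843, minus strand: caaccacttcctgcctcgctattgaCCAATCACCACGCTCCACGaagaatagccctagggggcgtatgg
Herpud1, chr8:94386292-94386412, plus strand: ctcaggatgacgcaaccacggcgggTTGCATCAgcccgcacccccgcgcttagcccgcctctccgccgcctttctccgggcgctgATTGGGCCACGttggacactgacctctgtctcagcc

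**Figure D1:**
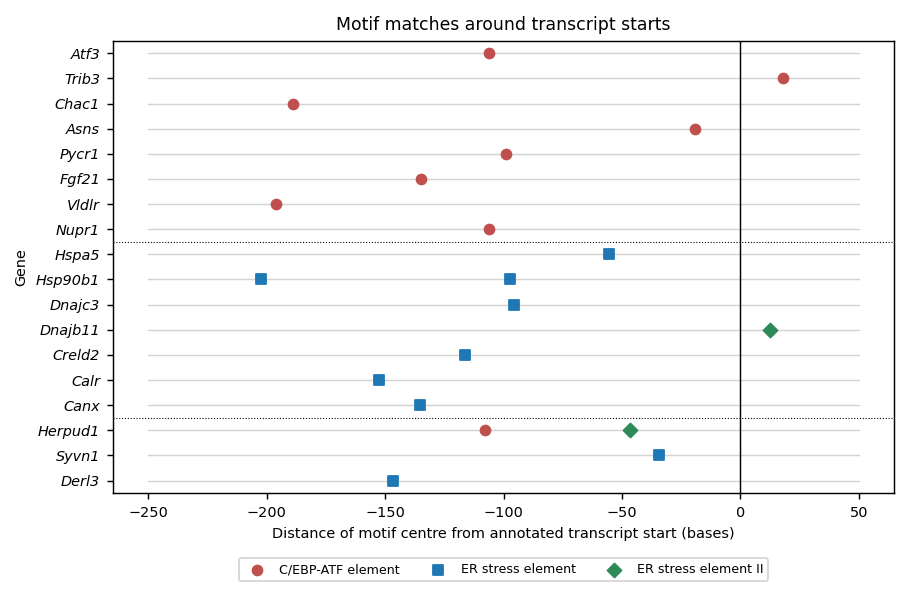
Positions of motif matches in the promoters of the genes that had any, as the distance of the motif's centre from the annotated transcript start in bases, with ATF4 targets at the top, chaperones in the middle and sensor and ERAD genes at the bottom. Circles (C/EBP-ATF element) lie on ATF4 targets and Herpud1, and squares (ER stress element) on chaperones, Syvn1 and Derl3.

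Total counts per library ranged from 18452588 to 19859041, and Fgf21 had the fewest reads of the tested members, 20 in control shRNA library 1. Neuronal identity could not be read from these libraries, because the summed level of 16 neuronal markers, of which 8 were listed, lay between 0.740 and 1.71 CPM (counts scaled to library size) in every library, and Map2, Tubb3 and Nefl had at most 2 reads in any. Markers of fibroblasts, a list of 6 genes of which all were listed, summed to 4848 and 1464 CPM in the Ntoco shRNA libraries, 3393 and 3360 in the control shRNA libraries, 2341 and 2114 in the overexpression libraries and 1334 and 2317 in the vector libraries. Almost all of this was collagen (Col1a1 and Col1a2), while the fibroblast markers Dcn and Lum had at most 1 and 0 reads in any library. The lowest sums were in vector library 1 and Ntoco shRNA library 2. Summed markers of astrocytes (8.40 and 14.1 CPM) and microglia (1.98 and 2.32 CPM) were also lowest in these libraries. Vector library 1 had the highest level of 25 of the 37 tested members (67.6%), against 19.1% of all genes tested. Ntoco shRNA library 2 had the highest level of 6 (16.2%), against 14.3% of all genes tested. The part of these marker differences in the results was not tested. In RNA from a whole culture, fewer cells of a type and less RNA per cell cannot be told apart.

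On the per-length scale of the deposited FPKM values (read numbers corrected for the length of the gene and the depth of the library), levels of the members in control shRNA cells spanned a wide range within each class. Hspa5, the central ER chaperone BiP, had a level of 1540 ± 361 FPKM (SD, n = 2), followed by the lectin chaperone Calr with 892 ± 213 and the ER HSP90 protein Hsp90b1 with 829 ± 46.2 FPKM. Calr and Hsp90b1 did not differ beyond their spread. Atf4 itself had 568 ± 36.8 FPKM, and the serine synthesis enzymes Phgdh and Psat1 had 429 ± 46.0 and 355 ± 6.58 FPKM. Asparagine synthetase (Asns) had 241 ± 55.8 FPKM. The ATF4 partner Ddit3 (CHOP), a factor that promotes cell death under lasting stress, had 21.8 ± 7.94 FPKM. Among the chaperones the co-chaperone Dnajc3 was as low as Ddit3, with 23.0 ± 0.968 FPKM. Lower levels were found for Ern1 (6.57 ± 2.88 FPKM), the secreted hormone Fgf21 (5.54 ± 6.27) and the proline synthesis enzyme Pycr1 (4.48 ± 1.98), and these 3 did not differ beyond their spread. In the authors' annotation 11 of 11 chaperones and 8 of 8 sensor and ERAD genes carried the ER term of Gene Ontology, against 8 of 19 ATF4 targets (42.1%) and 1691 of all 16846 genes listed.

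Vector library 1 had the highest median of all 3 classes, while of the 3 medians vector library 2 was above 0 for the ATF4 targets alone. Expression is given as log2 CPM minus the gene's mean over the 8 libraries, and a class by its median over genes. The 18 tested ATF4 targets had medians of -0.16 and 0.26 in the Ntoco shRNA libraries and -0.53 and -0.03 in the control shRNA libraries. Their medians were 0.03 and -0.24 in the overexpression libraries and 0.45 and 0.21 in the vector libraries. Both vector libraries were above the other 6 except for Ntoco shRNA library 2, which lay between them, and control shRNA library 1 was the lowest.

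The 11 chaperones had medians of -0.14 and 0.02 in the Ntoco shRNA libraries, -0.10 and -0.15 in the control shRNA libraries, 0.19 and -0.05 in the overexpression libraries and 0.62 and -0.16 in the vector libraries. For them a single library, vector library 1, was high. The 8 sensor and ERAD genes had medians of -0.08 and 0.20 in the Ntoco shRNA libraries, -0.35 and 0.16 in the control shRNA libraries, -0.17 and -0.24 in the overexpression libraries and 0.63 and -0.22 in the vector libraries. Vector library 1 was again the highest and vector library 2 among the lowest.

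**Figure D2:**
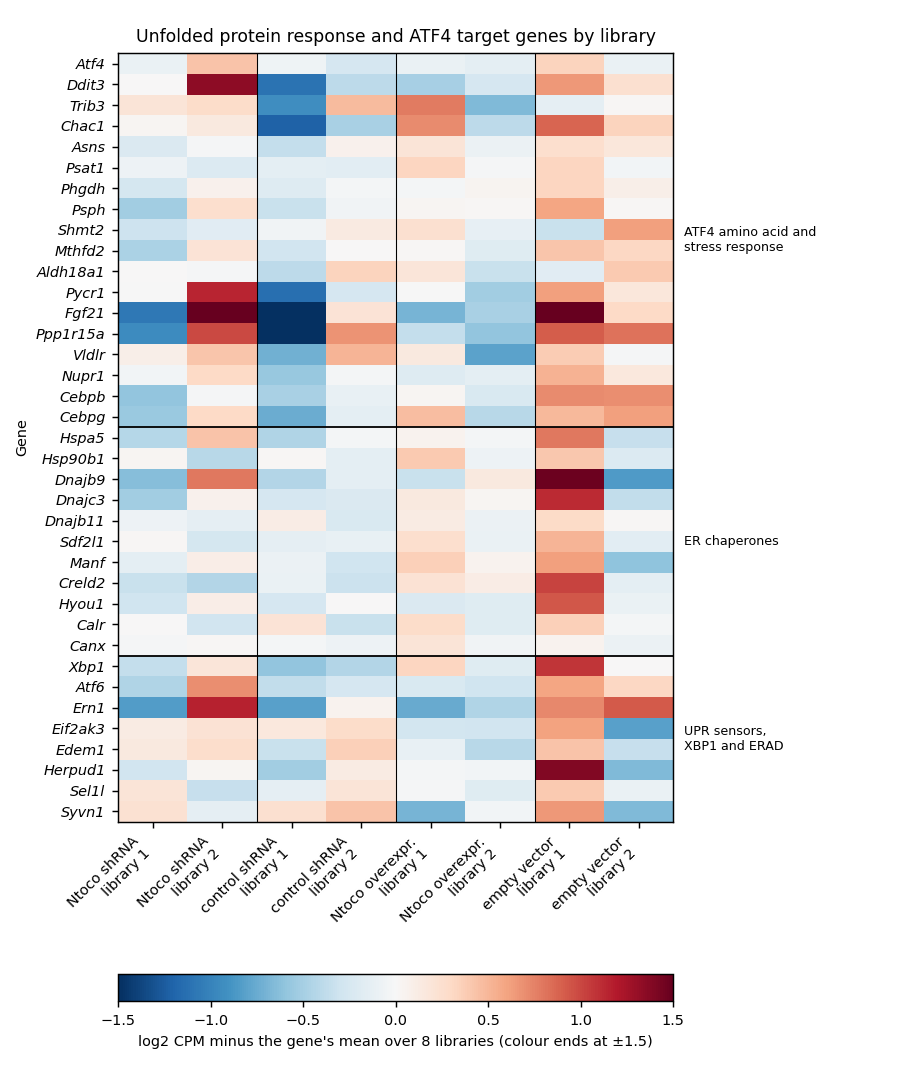
Level of each of the 37 tested genes (vertical) in each of the 8 libraries (horizontal), as log2 CPM minus the gene's mean over the libraries, red above and blue below the mean. Vector library 1 is red for nearly all chaperones and sensor and ERAD genes, vector library 2 mainly for ATF4 targets.

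**Figure D3:**
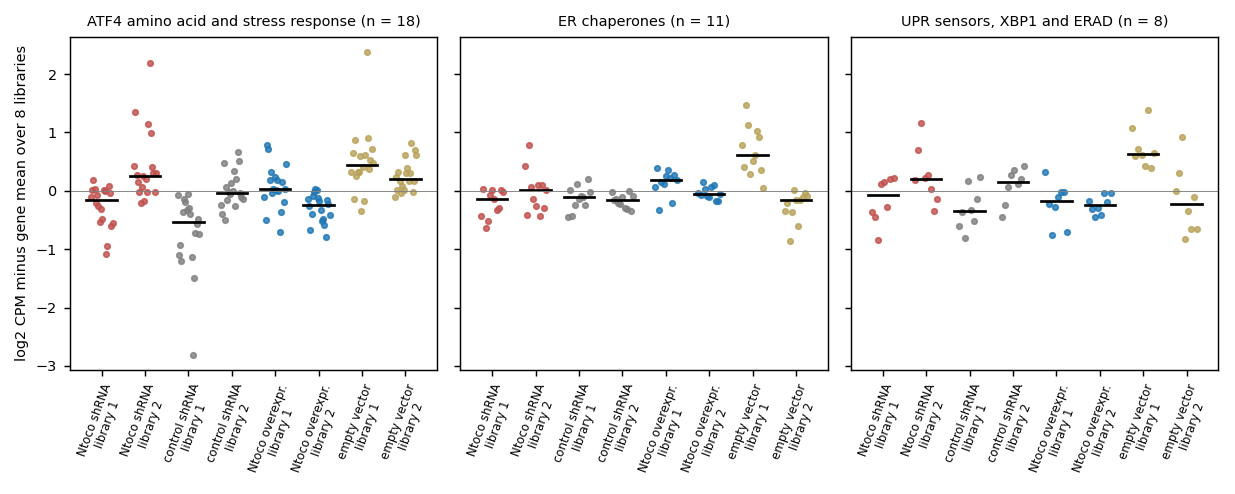
The same values as points, 1 per gene, with the class median as a bar, for ATF4 targets (18 genes), chaperones (11 genes) and sensor and ERAD genes (8 genes) in each library. The chaperone median stands at 0.62 in vector library 1 and between -0.16 and 0.19 in the other 7 libraries.

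Vector library 1 stood apart from its partner in the ER genes. It was the highest of the 8 libraries for 10 of 11 chaperones, 6 of 8 sensor and ERAD genes and 9 of 18 ATF4 targets, against 19.1% of all genes tested. The 2 vector libraries differed by a median of 1.03 (absolute log2) over the chaperones and 0.92 over the sensor and ERAD genes, against 0.38 over the ATF4 targets and 0.32 over all genes tested. Library 1 was the higher for 11 of 11 chaperones and 7 of 8 sensor and ERAD genes. The ratio of library 1 to library 2 was 5.01 for the BiP co-chaperone Dnajb9, 4.14 for the ERAD scaffold Herpud1, 2.81 for the co-chaperone Dnajc3, 2.69 for Eif2ak3, 2.48 for the ERAD ubiquitin ligase Syvn1, 2.19 for Hspa5 and 2.11 for Xbp1, and 1.10 for the lectin chaperone Canx. Dnajb9, Dnajc3, Eif2ak3, Syvn1 and Canx were chosen here after their values were seen. Class results of the members that set a group against the vector are therefore given with and without that library, as are those of several single members. Results of the further lists below are given with all libraries only.

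Within both shRNA groups, library 2 was the higher for most ATF4 targets and most sensor and ERAD genes. Control shRNA library 2 was above library 1 for 16 of 18 ATF4 targets, with a median difference of 0.57 (absolute log2) against 0.25 over all genes tested. Ntoco shRNA library 2 was also above library 1 for 16 of 18, with a median of 0.44 against 0.40 over all genes. Of the 8 sensor and ERAD genes, library 1 was the higher for 0 in the control shRNA group and 2 in the Ntoco shRNA group. Their median differences were 0.26 and 0.45 (absolute log2), near those of all genes. For Fgf21 the ratio between the libraries was 9.88 in the Ntoco shRNA group and 8.72 in the control shRNA group, and for Ppp1r15a, the eIF2 phosphatase subunit GADD34, 3.82 and 4.49.

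Among ATF4 targets in the knockdown, Ddit3, Chac1 and Pycr1 were higher in both Ntoco shRNA libraries than in both control shRNA libraries, and the enzymes of serine synthesis were close to their control levels. Ddit3 had 85.5 and 215 CPM in the Ntoco shRNA libraries and 39.4 and 64.4 CPM in the control shRNA libraries. The groups did not overlap, and Ntoco shRNA library 2 was the highest of all 8. The Ddit3 log2 ratio was 1.53 (SE 0.44), with an unadjusted p of 0.00811 and an adjusted p of 0.992 in edgeR's quasi-likelihood test. Without Ntoco shRNA library 2 it was 0.72. Exons of Ddit3 overlap those of the methionyl-tRNA synthetase gene Mars on the opposite strand by 68 bases, and the strand setting of the counting is not given in the sources used here.

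Pycr1, which makes proline, had 19.2 and 42.8 CPM in the Ntoco shRNA libraries and 8.80 and 16.2 CPM in the control shRNA libraries, also without overlap. Its log2 ratio was 1.31 (SE 0.45; unadjusted p 0.0208 and adjusted p 0.992 in edgeR's quasi-likelihood test), and 0.62 without Ntoco shRNA library 2. Chac1, which breaks down glutathione, had 75.5 and 82.3 CPM against 31.9 and 52.6 CPM in control shRNA libraries, a log2 ratio of 0.90 (SE 0.40). The ratio was 0.84 without Ntoco shRNA library 2, 0.58 without control shRNA library 1 and 1.30 without control shRNA library 2.

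Atf4 had 842 and 1217 CPM in the Ntoco shRNA libraries and 863 and 758 CPM in the control shRNA libraries, a log2 ratio of 0.34 (SE 0.24). Its groups overlapped, and only Ntoco shRNA library 2 was above both controls. Asns had 530 and 610 CPM in the Ntoco shRNA libraries and 479 and 642 CPM in the control shRNA libraries (log2 ratio 0.03, SE 0.21). For Fgf21 the values were 3.71 and 36.7 CPM in the Ntoco shRNA libraries and 1.05 and 9.14 CPM in the control shRNA libraries. Its log2 ratio was 1.99 (SE 1.21). In both shRNA groups library 2 was far the higher, and leaving out a single library moved the ratio widely. It was -0.46 without Ntoco shRNA library 2 and 2.84 without Ntoco shRNA library 1. Without control shRNA library 1 it was 1.14, and without control shRNA library 2 it was 4.25. The stress-induced chromatin protein gene Nupr1 had 95.4 and 121 CPM against 66.0 and 95.9 CPM in control shRNA libraries, which overlapped narrowly (log2 ratio 0.42, SE 0.25).

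The transcription factors Cebpb and Cebpg, which pair with ATF4, overlapped between the shRNA groups. Cebpb had 48.1 and 72.0 CPM in the Ntoco shRNA libraries and 51.9 and 67.3 CPM in the control shRNA libraries (log2 ratio 0.01, SE 0.25). Cebpg had 103 and 185 CPM in the Ntoco shRNA libraries and 89.7 and 136 CPM in the control shRNA libraries (log2 ratio 0.35, SE 0.38). For the serine synthesis genes the log2 ratios were 0.02 for Phgdh (SE 0.19), 0.02 for Psat1 (SE 0.20) and 0.10 for Psph (SE 0.30). In the mitochondrial one-carbon pathway they were -0.28 for Shmt2 (SE 0.31), which was lower in both Ntoco shRNA libraries, and 0.04 for Mthfd2 (SE 0.25). The remaining log2 ratios were -0.02 for the proline synthesis gene Aldh18a1 (SE 0.31), 0.30 for the pseudokinase Trib3 (SE 0.53), 0.36 for Ppp1r15a (SE 0.73) and 0.24 for the lipoprotein receptor Vldlr (SE 0.44).

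In the knockdown comparison 0 of the 37 members, and 0 of 12115 genes (0%), had an adjusted p under 0.05 in edgeR's quasi-likelihood test. At an unadjusted p under 0.05 there were 2 ATF4 targets, Ddit3 and Pycr1, both higher, and 0 genes of the other classes, beside 1.51% of all genes higher and 1.61% lower (378 genes, 3.12%). DESeq2's Wald test called 15 genes, of which 0 were members. Libraries that did not overlap were found for 3 of 18 ATF4 targets on the higher side and 1 on the lower, where 15.1% of all genes were higher and 14.1% lower without overlap. The share among ATF4 targets, 16.7%, was thus near that of all genes. Their median log2 ratio was 0.27, with 16 of 18 above 0, against 0.01 over all genes. It was -0.046 without Ntoco shRNA library 2, -0.051 without control shRNA library 1 and 0.53 without control shRNA library 2, so its sign depended on single libraries.

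The chaperones lay near 0 in the knockdown. Their median log2 ratio was 0.04, against 0.01 over all genes, with 7 above and 4 below 0 and a range of -0.18 to 0.53. Hspa5 had 3318 and 6043 CPM in the Ntoco shRNA libraries and 3269 and 4400 CPM in the control shRNA libraries, with overlapping groups (log2 ratio 0.29, SE 0.40). Canx was higher and Creld2, an ER protein induced by stress, lower in both Ntoco shRNA libraries, with log2 ratios of 0.06 (SE 0.17) and -0.18 (SE 0.34). That was 1 of 11 chaperones on each side (9.09%), against 15.1% of all genes higher and 14.1% lower. The other log2 ratios were -0.11 for Hsp90b1 (SE 0.28), 0.53 for Dnajb9 (SE 0.70), 0.04 for Dnajc3 (SE 0.43), -0.06 for the co-chaperone Dnajb11 (SE 0.20) and 0.00 for its partner Sdf2l1 (SE 0.26). They were 0.17 for the secreted ER protein Manf (SE 0.36), 0.04 for the nucleotide exchange factor Hyou1 (SE 0.32) and -0.09 for Calr (SE 0.27).

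Of the sensors and their effector, Xbp1 had non-overlapping groups in the knockdown, with 193 and 281 CPM in the Ntoco shRNA libraries and 164 and 182 CPM in the control shRNA libraries. Its log2 ratio was 0.45 (SE 0.36), and 0.16 without Ntoco shRNA library 2. Atf6 had 122 and 270 CPM in the Ntoco shRNA libraries and 130 and 140 CPM in the control shRNA libraries. Ern1 had 31.0 and 124 CPM in the Ntoco shRNA libraries and 31.6 and 57.9 CPM in the control shRNA libraries. Of these 4 libraries, both were high in Ntoco shRNA library 2 alone, and their log2 ratios of 0.54 (SE 0.34) and 0.79 (SE 0.57) were -0.15 and -0.53 without it. Herpud1 had 155 and 191 CPM in the Ntoco shRNA libraries and 131 and 205 CPM in the control shRNA libraries (log2 ratio 0.04, SE 0.55). The log2 ratios were -0.04 for Eif2ak3 (SE 0.39), 0.15 for the mannosidase-like Edem1 (SE 0.32), -0.09 for the ERAD adaptor Sel1l (SE 0.26) and -0.28 for Syvn1 (SE 0.41), which was lower in both Ntoco shRNA libraries. Libraries did not overlap for 1 of 8 genes of the class on each side (12.5%), against 15.1% of all genes higher and 14.1% lower. The class median was 0.10, and between -0.13 and 0.46 with single libraries left out.

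**Figure D4:**
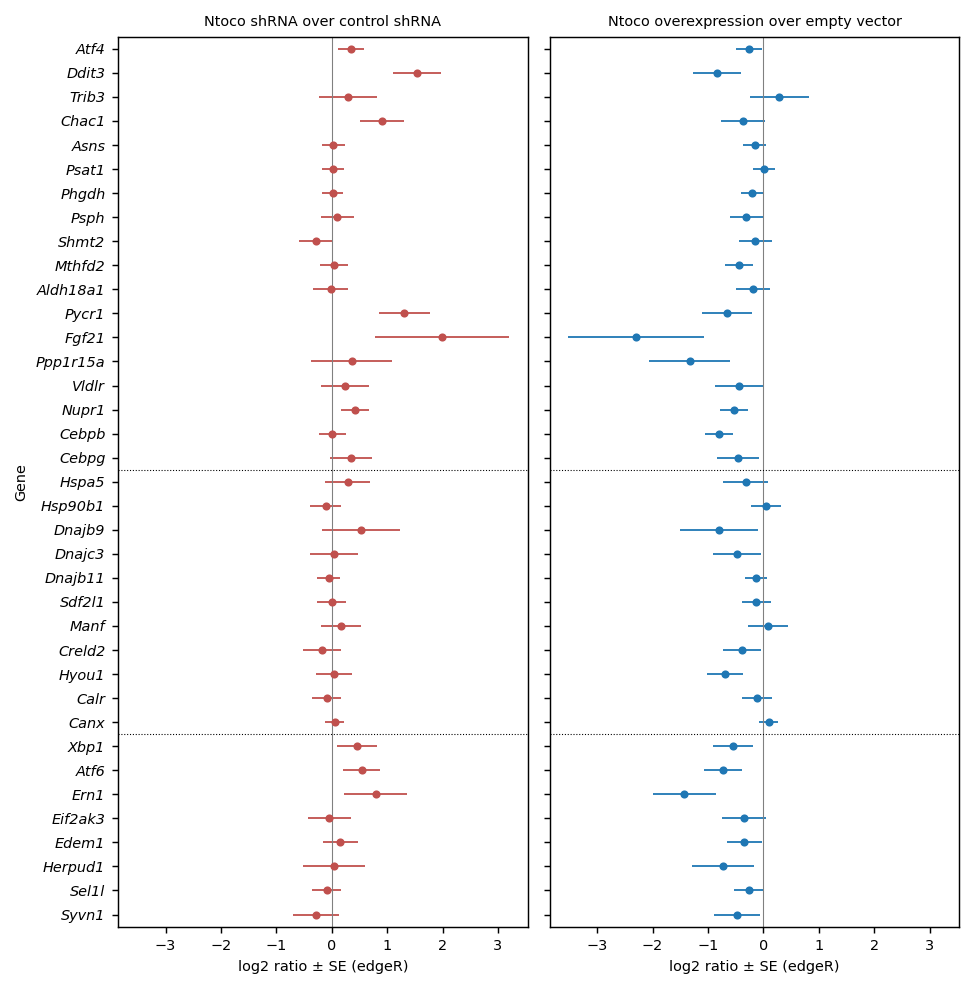
log2 ratios with SE from edgeR for the 37 tested genes, in the knockdown (left) and the overexpression (right), each from 2 against 2 libraries. Most ATF4 targets, above the first dotted line, lie right of 0 in the knockdown and left of 0 in the overexpression. Ddit3 lies at 1.53 and -0.83, but several lie close to 0 in the knockdown, such as Cebpb at 0.01 and Phgdh at 0.02. Most chaperones also lie near 0 in the knockdown.

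In cells overexpressing Ntoco, 10 of 18 ATF4 targets lay below both vector libraries in both overexpression libraries (55.6%), where 23.1% of all genes did. They were Atf4, Ddit3, Phgdh, Mthfd2, Pycr1, Fgf21, Ppp1r15a, Nupr1, Cebpb and Cebpg, and 0 of 18 were higher without overlap, against 24.1% of all genes. Cebpb had 74.1 and 62.3 CPM in the overexpression libraries and 119 and 118 CPM in the vector libraries. The vector libraries were almost equal and both well above the overexpression libraries. The Cebpb log2 ratio was -0.80 (SE 0.25; unadjusted p 0.0125 and adjusted p 0.598 in edgeR's quasi-likelihood test), between -0.93 and -0.68 with any library of the 2 groups left out.

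Ddit3 had 60.0 and 71.1 CPM in the overexpression libraries and 133 and 100 CPM in the vector libraries, a log2 ratio of -0.83 (SE 0.43). Pycr1 had 19.3 and 13.4 CPM against 29.6 and 21.7 CPM in vector libraries (log2 ratio -0.65, SE 0.45). Nupr1 had 85.6 and 88.3 CPM against 141 and 110 CPM in vector libraries (log2 ratio -0.53, SE 0.25). In none of these 3 genes did the groups overlap, and none of them passed the threshold. Fgf21 had 4.84 and 5.63 CPM in the overexpression libraries and 41.7 and 9.79 CPM in the vector libraries. Its log2 ratio of -2.30 (SE 1.22) was -0.90 without vector library 1.

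Cebpg had 208 and 113 CPM in the overexpression libraries and 210 and 231 CPM in the vector libraries (log2 ratio -0.46, SE 0.38), so only overexpression library 2 was clearly lower. Chac1 had 121 and 56.3 CPM in the overexpression libraries and 136 and 93.1 CPM in the vector libraries, with overlap (log2 ratio -0.37, SE 0.39). Atf4 had 839 and 817 CPM in the overexpression libraries and 1134 and 842 CPM in the vector libraries. Its log2 ratio of -0.25 (SE 0.24) was -0.02 without vector library 1, so the difference lay in that library. Asns had 704 and 579 CPM in the overexpression libraries and 733 and 694 CPM in the vector libraries (log2 ratio -0.15, SE 0.21).

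The log2 ratios of the remaining ATF4 targets were -1.33 for Ppp1r15a (SE 0.74), -0.44 for Mthfd2 (SE 0.25), -0.44 for Vldlr (SE 0.44), -0.31 for Psph (SE 0.30), -0.21 for Phgdh (SE 0.19), -0.19 for Aldh18a1 (SE 0.31), -0.14 for Shmt2 (SE 0.30), 0.01 for Psat1 (SE 0.20) and 0.29 for Trib3 (SE 0.53). Of the 18 ATF4 targets 1, Psph, changed sign without vector library 1, to 0.0073. The class median was -0.40, with 16 of 18 below 0, against -0.01 over all genes tested. It was -0.36 without vector library 1 and between -0.57 (without overexpression library 1) and -0.24 (without overexpression library 2) with single libraries left out. Overexpression library 2 was below both vector libraries for 16 of 18 ATF4 targets and overexpression library 1 for 10 of 18, against 32.2% and 36.9% of all genes tested.

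The chaperones and the sensor and ERAD genes were also lower on average in the overexpression, but that rested on vector library 1. The chaperone median log2 ratio was -0.14 with all libraries and 0.32 without vector library 1. Hspa5 had 4656 and 4384 CPM in the overexpression libraries and 7730 and 3536 CPM in the vector libraries. The overexpression values thus lay between the vector values, and the log2 ratio of -0.32 (SE 0.40) was 0.36 without vector library 1. Hyou1, named after its values were seen, was the only chaperone lower in both overexpression libraries, with 712 and 729 CPM against 1570 and 767 CPM in vector libraries (log2 ratio -0.70, SE 0.33), and -0.09 without vector library 1. Chaperones lower without overlap were thus 1 of 11 (9.09%), against 23.1% of all genes. The other chaperone log2 ratios ranged from -0.80 for Dnajb9 (SE 0.70) to 0.09 for Canx (SE 0.17). Without vector library 1 the ratio of Dnajb9 was 0.79, that of Dnajc3 was 0.46 in place of -0.47, and 10 of 11 chaperones had a log2 ratio above 0, where 3 of 11 did with all libraries.

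Ern1 and Atf6 kept their lower values without vector library 1. They were the 2 of 8 sensor and ERAD genes lower without overlap (25%), against 23.1% of all genes. On the higher side there were 0, against 24.1% of all genes. Ern1 had 32.8 and 40.7 CPM in the overexpression libraries and 91.7 and 106 CPM in the vector libraries. The groups were far apart for this sensor, with a log2 ratio of -1.43 (SE 0.58; unadjusted p 0.0389 and adjusted p 0.598 in edgeR's quasi-likelihood test), and -1.52 without vector library 1. Atf6 had 142 and 135 CPM in the overexpression libraries and 252 and 207 CPM in the vector libraries, a log2 ratio of -0.73 (SE 0.34), and -0.58 without vector library 1.

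For the other 6 genes of the class the direction of the difference depended on vector library 1. Xbp1 had 310 and 219 CPM in the overexpression libraries and 523 and 248 CPM in the vector libraries (log2 ratio -0.55, SE 0.37), and 0.09 without vector library 1. Herpud1 had 185 and 183 CPM in the overexpression libraries and 492 and 119 CPM in the vector libraries. Its log2 ratio of -0.73 (SE 0.55) turned to 0.63 without vector library 1. The log2 ratios were -0.35 for Eif2ak3 (SE 0.39), -0.35 for Edem1 (SE 0.32), -0.26 for Sel1l (SE 0.26) and -0.47 for Syvn1 (SE 0.41). Without vector library 1 they were 0.54 for Eif2ak3, 0.093 for Edem1, 0.0043 for Sel1l and 0.33 for Syvn1. The class median of the 8 sensor and ERAD genes was -0.51 with all libraries and 0.092 without vector library 1.

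In the overexpression comparison 0 of the 37 members and 0 of 12115 genes (0%) had an adjusted p under 0.05 in edgeR's quasi-likelihood test. At an unadjusted p under 0.05, Cebpb and Ern1 were lower and 0 members were higher, beside 4.09% of all genes lower and 3.53% higher (923 genes, 7.62%). DESeq2's Wald test called 1 gene, which was not a member.

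**Figure D5:**
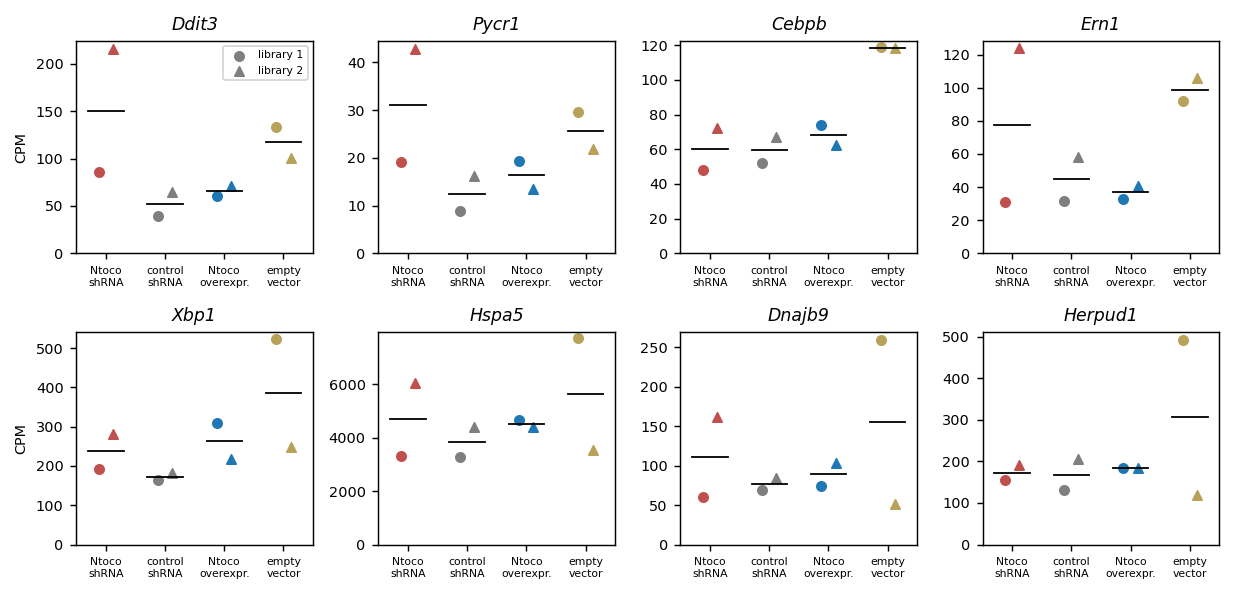
CPM of Ddit3, Pycr1, Cebpb, Ern1, Xbp1, Hspa5, Dnajb9 and Herpud1 in the 4 groups, with a circle for library 1, a triangle for library 2 and a bar for their mean. Cebpb and Ern1 are high in both vector libraries (119 and 118, 91.7 and 106 CPM), whereas Dnajb9 and Herpud1 are high in vector library 1 alone (259 against 51.8 and 492 against 119 CPM in library 2).

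The knockdown and overexpression comparisons share no library, and the difference between their effects (overexpression log2 ratio minus knockdown log2 ratio) was tested in the same model. Ddit3 had the smallest p of this difference among members, with a value of -2.37 (SE 0.61; unadjusted p 0.00489 and adjusted p 0.650 in edgeR's quasi-likelihood test). For Pycr1 it was -1.96 (SE 0.64; unadjusted p 0.0156, adjusted p 0.650 in edgeR's quasi-likelihood test). These 2 ATF4 targets were the only members higher in both Ntoco shRNA libraries and lower in both overexpression libraries than their own controls, a pattern held by 2.90% of all genes tested. The reverse pattern was held by 0 members and 3.63% of all genes. The difference also had an unadjusted p under 0.05 for Ern1 (-2.22, SE 0.81), Nupr1 (-0.95, SE 0.35), Atf6 (-1.27, SE 0.48), Fgf21 (-4.28, SE 1.72) and Cebpb (-0.81, SE 0.35). Without Ntoco shRNA library 2 the difference was -1.55 for Ddit3, -1.27 for Pycr1, -0.90 for Ern1, -0.77 for Nupr1, -0.58 for Atf6, -1.84 for Fgf21 and -0.49 for Cebpb.

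Together these were 7 of the 37 members, all with a lower effect in the overexpression, beside 3.35% of all genes in that direction and 3.57% in the other (838 genes, 6.92%). With an adjusted p of 0.05 as threshold, 0 members and 0 genes (0%) passed edgeR's quasi-likelihood test, and DESeq2's Wald test called 14 genes, of which 0 were members. A log2 ratio above 0 in the knockdown and below 0 in the overexpression was found for 14 of 18 ATF4 targets (77.8%), 5 of 11 chaperones (45.5%) and 5 of 8 sensor and ERAD genes (62.5%), against 29.0% of all genes tested. Some of these knockdown ratios were close to 0, such as Cebpb (0.01, SE 0.25) and Phgdh (0.02, SE 0.19). Only 8 of 18 ATF4 targets were above 0 in the knockdown without Ntoco shRNA library 2, and 8 without control shRNA library 1. There were 15 without Ntoco shRNA library 1 and 17 without control shRNA library 2. The median difference was -0.64 for the ATF4 targets, -0.13 for the chaperones and -0.64 for the sensor and ERAD genes. Without Ntoco shRNA library 2 the ATF4 median was -0.32, and without vector library 1 the chaperone median was 0.25 and the sensor and ERAD median 0.018.

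The 2 control groups themselves differed in the ATF4 targets, and each of them is the control of 1 of the comparisons above. In the empty vector against the control shRNA, 13 of 18 ATF4 targets were higher in both vector libraries (72.2%) and 0 were lower, where 24.6% of all genes were higher and 26.5% lower without overlap. They were Ddit3, Chac1, Asns, Psat1, Phgdh, Psph, Mthfd2, Pycr1, Fgf21, Ppp1r15a, Nupr1, Cebpb and Cebpg. The median log2 ratio of the class was 0.51, with 18 of 18 above 0, against -0.0029 over all genes tested, and it was 0.44 without vector library 1.

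For several ATF4 targets the ratios between the controls were larger in size than in either Ntoco comparison. They were Chac1, Cebpb, Asns, Psat1, Phgdh, Psph, Mthfd2, Fgf21, Nupr1 and Cebpg. For Chac1, with 136 and 93.1 CPM in the empty vector libraries, against 31.9 and 52.6 CPM in the control shRNA libraries, the log2 ratio was 1.44 (SE 0.40; unadjusted p 0.00743 and adjusted p 0.337 in edgeR's quasi-likelihood test). For Cebpb, with 119 and 118 CPM in the empty vector libraries, against 51.9 and 67.3 CPM in the control shRNA libraries, it was 0.99 (SE 0.25; unadjusted p 0.00413 and adjusted p 0.337 in edgeR's quasi-likelihood test). The values for Chac1 and Cebpb were below an adjusted p of 0.05 with DESeq2's Wald test, at 0.0265 and 0.0281. Ddit3 had a log2 ratio of 1.17 (SE 0.43), Cebpg one of 0.97 (SE 0.38) and Nupr1 one of 0.63 (SE 0.25), each with an unadjusted p under 0.05. The overexpression libraries, with 60.0 and 71.1 CPM of Ddit3, lay on either side of control shRNA library 2 with 64.4 CPM and above control shRNA library 1 with 39.4 CPM.

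Over the chaperones the vector was higher than the control shRNA by a median of 0.34 (log2), with 11 of 11 above 0. But groups that did not overlap were found for 0 of 11, where 24.6% of all genes were higher and 26.5% lower. All 11 were above both control shRNA libraries in vector library 1 and 0 of 11 in vector library 2, and without vector library 1 the median was -0.043, with 7 of 11 below 0. Hspa5 had a log2 ratio of 0.55 (SE 0.40), and -0.12 without vector library 1. Of the sensors and their effector, Xbp1 (log2 ratio 1.16, SE 0.37, unadjusted p 0.0142 and adjusted p 0.351 in edgeR's quasi-likelihood test), Atf6 (0.77, SE 0.34) and Ern1 (1.14, SE 0.57) were higher in both vector libraries. They were 3 of 8 sensor and ERAD genes (37.5%), against 24.6% of all genes. Xbp1 had a log2 ratio of 0.52 without vector library 1. For Herpud1 it was 0.86 (SE 0.56), and -0.50 without that library.

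In this control comparison 0 members and 0 of 12115 genes (0%) had an adjusted p under 0.05 in edgeR's quasi-likelihood test. At an unadjusted p under 0.05 there were 6 of 37 members, all higher, beside 6.45% of all genes higher and 6.10% lower (1520 genes, 12.5%). DESeq2's Wald test called 281 genes, of which 2 were members. The control comparison shares its libraries with both Ntoco comparisons, so its values are set beside theirs only as levels. How the controls differ in delivery is uncertain, and the part of delivery in these levels was not tested.

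Other ATF4 targets, 25 tested genes of amino acid transport, redox balance and signalling outside the 40, were set beside the ATF4 class. In the overexpression 16 of 25 were lower in both libraries (64%) and 0 higher, against 23.1% and 24.1% of all genes, with a median log2 ratio of -0.58 and 24 of 25 below 0. The 3 genes with the smallest p were the amino acid transporters Slc7a5 (-0.58, SE 0.20) and Slc38a2 (-0.84, SE 0.30) and the transcription factor Atf5 (-0.97, SE 0.38). Atf5 had 193 and 220 CPM in the overexpression libraries and 582 and 227 CPM in the vector libraries. For it only vector library 1 was clearly higher. Slc7a5 had 849 and 876 CPM and Slc38a2 had 2389 and 1561 CPM in the vector libraries, above both overexpression libraries. In the vector against the control shRNA 13 of 25 were higher in both libraries, against 24.6% of all genes, and 25 of 25 had a log2 ratio above 0 (median 0.54). The autophagy receptor Sqstm1 (1.10, SE 0.29), the transporter heavy chain Slc3a2 (0.98, SE 0.34) and the cystine transporter Slc7a11 (1.47, SE 0.52) had the smallest p there. In the knockdown the median was 0.14, with 1 gene higher in both libraries and 0 lower, against 15.1% and 14.1% of all genes, and Atf5 (0.65, SE 0.38), the cytokine Gdf15 (-0.63, SE 0.41) and the arginine transporter Slc7a3 (0.64, SE 0.53) had the smallest p. The difference between the effects had its smallest p for Atf5 (-1.62, SE 0.54), Slc38a2 (-1.08, SE 0.42) and the arginine transporter Slc7a1 (-1.22, SE 0.51).

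Aminoacyl-tRNA synthetases, which load amino acids onto tRNAs and include known ATF4 targets, had medians nearer to 0. Of 20 tested, 8 were lower and 3 higher in both overexpression libraries, against 23.1% and 24.1% of all genes (median log2 ratio -0.15). In both Ntoco shRNA libraries 1 was higher and 3 were lower, against 15.1% and 14.1% of all genes (median -0.02). The smallest p in the overexpression belonged to Qars (0.76, SE 0.27), Gars (-0.47, SE 0.19) and Wars (-0.81, SE 0.37), and in the knockdown to Dars (0.43, SE 0.22), Cars (-0.33, SE 0.17) and Mars1 (-0.21, SE 0.18). The difference between the effects had its smallest p for Qars (1.08, SE 0.38), Wars (-1.09, SE 0.52) and Hars (0.56, SE 0.29). In the vector against the control shRNA 10 were higher and 1 lower in both libraries, against 24.6% and 26.5% of all genes (median 0.31), led by Qars (-0.88, SE 0.27), Gars (0.44, SE 0.19) and Rars (0.52, SE 0.24).

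Other genes of ER folding, transport and ERAD, 37 tested, were higher in both Ntoco shRNA libraries for 14 genes (37.8%, against 15.1% of all genes) and lower for 1. Their median knockdown log2 ratio was 0.23, against 0.04 for the chaperones, and the single log2 ratios ranged from -0.24 to 0.50. The smallest p belonged to the BiP exchange factor Sil1 (0.50, SE 0.28), the translocon subunit Sec62 (0.32, SE 0.21) and the signal peptidase subunit Spcs1 (0.28, SE 0.18). In the overexpression 2 were higher and 4 lower in both libraries, against 24.1% and 23.1% of all genes (median -0.09), led by the coat protein Sec31a (-0.43, SE 0.21), the translocon subunit Sec63 (-0.43, SE 0.23) and the glycoprotein folding sensor Uggt1 (-0.27, SE 0.16). The difference between the effects had its smallest p for Sec63 (-0.71, SE 0.33), the oxidoreductase Erp44 (-0.79, SE 0.40) and Uggt1 (-0.44, SE 0.23). In the control comparison 9 were higher and 1 lower in both vector libraries, against 24.6% and 26.5% of all genes (median 0.19), led by Ube2j1 (0.44, SE 0.18), Selenos (0.69, SE 0.33) and Sec63 (0.49, SE 0.23). In vector libraries 1 and 2, Sec63 had 168 and 112 CPM, Erp44 had 180 and 99.4 and Selenos had 204 and 109. The libraries were closer for Sec31a (427 and 405), Uggt1 (392 and 363) and Ube2j1 (209 and 174).

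Other sensors and regulators of eIF2, 26 tested, had median log2 ratios of 0.00 in the knockdown, -0.12 in the overexpression and 0.05 in the control comparison. In the knockdown 3 were higher and 4 lower in both libraries, against 15.1% and 14.1% of all genes, and the smallest p belonged to the ER stress factor Creb3l1 (0.61, SE 0.38) and the eIF2 pathway subunits Eif2b3 (0.51, SE 0.39) and Eif2s3x (-0.23, SE 0.18). In the overexpression 6 were higher and 6 lower in both libraries, against 24.1% and 23.1% of all genes, with Eif2s2 (0.46, SE 0.16), Eif2b5 (0.54, SE 0.21) and the GCN2 activator Gcn1 (-0.41, SE 0.16) leading. The difference between the effects had its smallest p for Eif2s2 (0.55, SE 0.23), Eif2s3x (0.60, SE 0.26) and Eif2b5 (0.66, SE 0.30).

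The eIF2 kinase PKR (Eif2ak2), which binds double-stranded RNA and is induced by interferon, differed between the control groups. It had 402 and 444 CPM in the empty vector libraries, against 71.5 and 62.1 CPM in the control shRNA libraries, a log2 ratio of 2.66 (SE 0.59; unadjusted p 0.00215 and adjusted p 0.337 in edgeR's quasi-likelihood test). The vector libraries were both far above the control shRNA libraries. In the overexpression libraries it had 75.6 and 346 CPM, so library 2 was close to the vector libraries and library 1 to the control shRNA libraries, and in the Ntoco shRNA libraries it had 104 and 93.5 CPM. The next smallest p in the control comparison of this list belonged to Eif2b3 (0.92, SE 0.39) and Creb3 (0.73, SE 0.32).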

How the data were processed

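The authors deposited whole-number read counts per gene and FPKM values. In 12615 of 12615 genes counted in all libraries the FPKM equalled the count scaled by 1 gene length and the library total (tolerance 0.01). Per the submitters' processing notes Trimmomatic, HISAT2, Cufflinks, HTSeq, DESeq and the build mm10 were used. The sources used here give neither their roles and versions nor the strand setting. Per the labels' protocols the library kit was stranded and selected mRNA.

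The 8 columns, 2 per group, were assigned to groups by the roles in their names. The column names abbreviate the target in a way the labels do not explain. The chi-square per gene between libraries of a group was 62.1 to 156, so none was a repeat of another. Genes were filtered with filterByExpr (minimum count 10), scaled with TMM factors and tested with edgeR 4.0.16 quasi-likelihood F-tests (R 4.3.3, limma 3.58.1) over all 4 groups in 1 model (4 residual and 3.85 prior degrees of freedom). The Benjamini-Hochberg adjustment ran over 12115 genes, and SE is the log2 ratio divided by the square root of F. CPM values were scaled by TMM, and class medians by library used a prior count of 2. Libraries did not overlap when both of a group lay on one side of both of the other. DESeq2 1.42.0, other scalings, no filter, a replicate block and leaving out each library were alternatives. The scripts were tested on simulated data. Tables and figures used Python 3.11.15, pandas 2.3.3 and matplotlib 3.10.9.

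Promoters are RefSeq sequences of GRCm38.p6. A planned look at protein C termini was not run. Values in every library are given for Atf4, Ddit3, Atf3, Asns, Hspa5, Xbp1, Herpud1 and each member with an unadjusted p under 0.05 in any comparison, and of further lists the 3 genes with the smallest p. The members and lists were chosen with earlier results of these data known. Exons of Ddit3, Psph, Shmt2, Ppp1r15a, Cebpg, Hsp90b1, Dnajb9, Manf, Eif2ak3 and Syvn1 overlap a gene on the opposite strand in GENCODE M21.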

Additional observations from a re-analysis of the deposited data

Results flagged for a closer look

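Ddit3 and Pycr1 moved in opposite directions in the 2 Ntoco comparisons: every Ntoco shRNA library was above both control shRNA libraries and every overexpression library was below both vector libraries. They were 2 of 37 members, and 2.90% of all genes tested held this pattern. Both genes were also higher in both vector libraries than in the control shRNA libraries. Those log2 ratios were 1.17 (SE 0.43) for Ddit3 and 1.04 (SE 0.45) for Pycr1. The overexpression log2 ratio minus the knockdown log2 ratio was -2.37 for Ddit3 and -1.96 for Pycr1. The difference was tested in the same model and did not pass (adjusted p 0.650 for both in edgeR's quasi-likelihood test). With any library left out it ranged from -2.88 to -1.55 for Ddit3 and from -2.47 to -1.27 for Pycr1. Ntoco shRNA library 2 had the lowest fibroblast marker sum of its group, 1464 CPM against 4848 CPM in library 1, and gave the higher value of both genes. Its part in the result was not tested.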

How the results depend on the processing

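edgeR called 0 genes in each of the 4 comparisons. DESeq2's Wald test called 15 in the knockdown, 1 in the overexpression, 14 for the difference of effects and 281 in the control comparison. Fitting the 2 groups compared alone gave 1 gene in the overexpression and 128 in the control comparison, and no filter on low counts gave 3 in the control comparison. Library numbers come from column names, not the labels. The correlation of library differences was 0.36 in the knockdown, -0.22 in the overexpression and -0.12 in the control comparison. Libraries of the same number thus differed partly alike in the shRNA groups, but not in the other comparisons. Whether the numbers mark pairs is not stated, and the main model used no pairing. With a replicate block 0 genes were called in all 4 comparisons (292, 835, 738 and 1329 at an unadjusted p under 0.05). The crossed replicate block, chosen after seeing the data, gave 0 in the overexpression and 1 in the control comparison.

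With single libraries left out, 0 to 1 genes were called in the knockdown and for the difference (1 without Ntoco shRNA library 1), 0 to 25 in the overexpression (25 without overexpression library 2) and 0 in the control comparison, and 0 members in any. A lone library was assumed to vary like the other groups. Knockdown medians ranged from -0.051 to 0.53 for ATF4 targets, -0.026 to 0.083 for chaperones and -0.13 to 0.46 for sensor and ERAD genes. Overexpression medians ranged from -0.57 to -0.24, -0.43 to 0.32 and -0.93 to 0.092 in the same order, those of the difference from -0.95 to -0.32, -0.57 to 0.25 and -1.12 to 0.018, and those of the control comparison from 0.37 to 0.89, -0.043 to 0.80 and -0.27 to 0.65. Chaperones lower without overlap in the knockdown numbered 0 with median-of-ratios factors (1 with TMM), and sensor and ERAD genes 0 with total counts (1 with TMM). Other scalings moved the median of all genes by under 0.1. The cause of these changes was not tested. Under the settings that left no library out, 923 single member ratios stayed within 1 SE of the main value without passing the threshold. The other 2 (Chac1 and Cebpb with DESeq2 in the control comparison) passed it. With a library left out, 598 stayed within 1 SE of the value from all libraries and 142 did not.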
